A study of Homo sapiens with 24 samples.

Results

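Gene expression after 24 h of hypoxia was compared with that after 12 h in the control line of a study of Huh-7 cells, an established human hepatocellular carcinoma line. The arrays were chosen by their titles alone, namely the 2 arrays of the shGFP line at 24 h of 1% oxygen and the 2 arrays of the same line at 12 h, 4 of 24 arrays in all. The shGFP cells stably carried a lentiviral short hairpin RNA (shRNA) against GFP, a fluorescent protein foreign to human cells, and served as the control for lines with hairpins against HIF1A or NDRG3. Other arrays were used only for context, namely shGFP cells in normoxia (n = 2), at 3 h (n = 3) and at 6 h (n = 2), and the shNDRG3 line, which carried a hairpin against NDRG3, at 12 h and 24 h (n = 2 each). All of these groups were stable transduced lines in serum-containing medium, and all but the normoxia arrays were kept at 1% oxygen. The labels do not say whether a line was a clone or a pool. They give no time for the normoxia arrays, so hours at low oxygen and hours in culture cannot be told apart. Whether replicates came from separate cultures is not stated either, and the spread behind each p-value may therefore be technical alone. RNA was read on Illumina bead arrays.

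When oxygen is plentiful, prolyl hydroxylases of the EGLN family mark the alpha subunits of hypoxia-inducible factor (HIF) for destruction through VHL. At low oxygen the alpha subunit (HIF1A or EPAS1) persists, pairs with ARNT and switches on genes of glucose uptake, glycolysis, blood vessel growth and matrix remodelling. In longer hypoxia cells are also known to cut costly work such as ribosome assembly, DNA replication and lipid synthesis. NDRG3 is known as a protein that is itself degraded in an oxygen-dependent way and that signals towards the ERK pathway when hypoxia is prolonged.

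Median signal lay at 123 to 124.4 on the 12 h arrays and 114.8 to 116.9 on the 24 h arrays before normalization, and mean signal at 867.6 to 906.5 and 769.2 to 777. Replicates correlated at r = 0.997 at 12 h and 0.9967 at 24 h across 15246 genes, with median differences of 0.1 and 0.106 on the log2 scale. No 2 replicates shared an identical value. All levels below are log2 signals after quantile normalization, on which the array median is 7.03, and values after ± are standard errors from limma. These errors pool the spread within all groups of the 24 arrays. The signal was not background-subtracted, so a fold is printed as a lower bound (at least) where the dimmer time was below 1.5 times that median. The liver label was borne out by few transcripts. Of 38 hepatocyte genes with a probe, 7 exceeded 2 times the array median over the 4 arrays (C3, CEBPA, CFB, CPS1, FOXA1, PCK2 and VTN) and 25 lay below it. Albumin (ALB) lay at 7.86 and 7.96 at 12 h and at 7.51 and 7.38 at 24 h. The summed signal of the hepatocyte list was 44540 and 45890 on the 12 h arrays and 45490 and 43820 on the 24 h arrays. In bulk samples, fewer cells that express a gene and less RNA per cell cannot be told apart.

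Between 12 h and 24 h most measured NF-kappaB targets (23 of 27) and histone genes (12 of 21) rose. Most genes of ribosome biogenesis (34 of 46), tRNA charging (15 of 18), nucleotide synthesis (16 of 23) and DNA replication (33 of 40) fell. Of 15246 genes tested, 4147 passed the threshold (27.2%; limma, Benjamini-Hochberg adjusted p under 0.05). Of these 1858 (12.2%) were higher at 24 h and 2289 (15%) lower. A change of 1.5-fold or more was reached by 893 higher (5.86%) and 984 lower genes (6.45%), and of 2-fold or more by 230 (1.51%) and 194 (1.27%). In 64.5% of all genes the 12 h arrays and the 24 h arrays did not overlap, 29% with 24 h higher and 35.4% with 24 h lower. The median difference of all genes was -0.02, the 5th and 95th percentiles were -0.66 and 0.63, and the median standard error was 0.13. The balance of directions depended on scaling. Higher genes were 44.8% of the calls after quantile normalization, 23.3% with median-centred arrays (881 higher, 2904 lower) and 13.6% with the values as deposited (624 higher, 3955 lower), where the median of all genes moved to -0.09 and -0.18. Each direction named below is against no change under the scaling used, and those medians were not subtracted. Counts given below for the other scalings therefore carry these shifts.

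**Figure D1:**
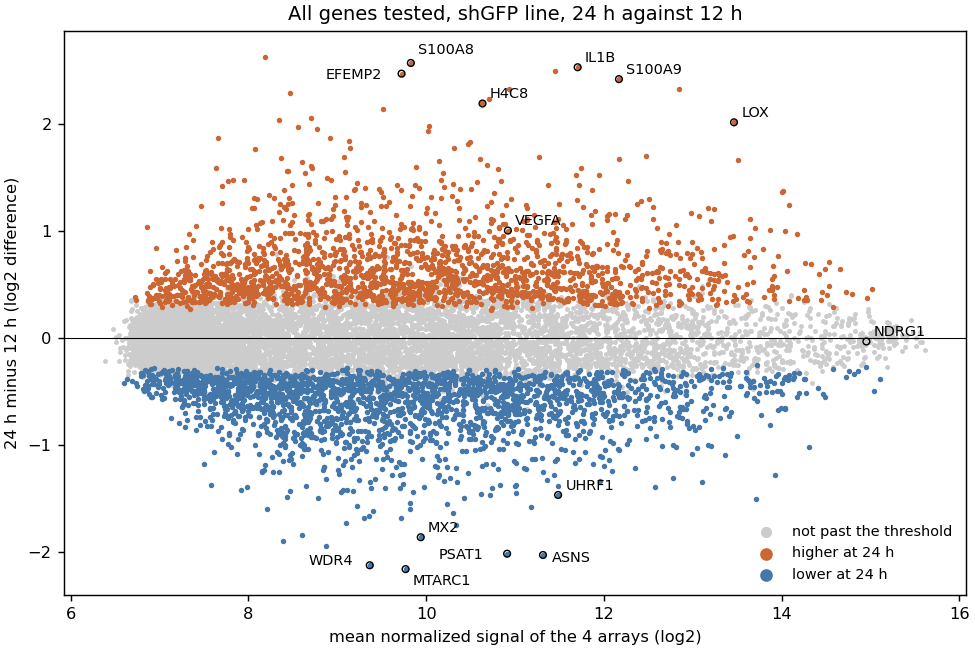
Each point is 1 of the 15246 genes, with the mean normalized signal of the 4 arrays on the x axis and the 24 h minus 12 h difference on the y axis, both on the log2 scale; orange and blue points passed the threshold. The largest changes reach 2.63 upwards and -2.16 downwards, while NDRG1 sits at -0.03 near the top of the signal range.

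The 12 largest rises and falls were taken only from genes past the threshold without overlap, so their lack of overlap follows from that choice. The rises included the cytokine genes IL1B and IL32, the chemokine gene CCL20 and both calprotectin genes. IL1B, the cytokine interleukin 1 beta, lay at 10.45 and 10.43 on the 12 h arrays and at 12.93 and 13.02 on the 24 h arrays. The 24 h arrays stood far above the 12 h arrays, with no overlap and replicates close together, a 5.77-fold rise (2.53 ± 0.14, adjusted p = 7.16e-12). CCL20, a chemokine that draws lymphocytes and dendritic cells, went from 10.31 and 10.10 to 12.70 on both 24 h arrays. That is a 5.64-fold rise (2.49 ± 0.17, adjusted p = 3.23e-10) without overlap. IL32, a further proinflammatory cytokine, stood at 9.64 and 9.90 at 12 h and at 12.00 and 12.20 at 24 h. It rose 5.01-fold (2.33 ± 0.23, adjusted p = 1.10e-07), and its spread within each time was small beside the gap.

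S100A8 and S100A9, whose proteins pair to form the calcium-binding antimicrobial protein calprotectin, rose together. S100A8 lay at 8.53 and 8.56 at 12 h and at 11.16 and 11.07 at 24 h, and S100A9 at 11.10 and 10.83 and then at 13.49 and 13.28. Both 24 h arrays were above both 12 h arrays for each gene, with rises of 5.94-fold (adjusted p = 3.94e-12) and 5.35-fold (adjusted p = 3.11e-11). PI3, an elastase inhibitor known as elafin, went from 11.73 and 11.63 to 13.99 and 14.04, a 5.03-fold rise. SERPINB3, a protease inhibitor of squamous epithelium, went from 8.54 and 8.36 to 10.69 and 10.50, a 4.42-fold rise. WFDC3, a member of the same small-inhibitor domain family as PI3, rose 4.70-fold.

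Outside inflammation, EFEMP2, an extracellular matrix protein needed for elastic fibres, lay at 8.5 and 8.48 at 12 h and at 10.89 and 11.02 at 24 h. Its 5.54-fold rise (2.47 ± 0.13, adjusted p = 3.94e-12) left a wide gap between the times. MRGPRX3, a receptor of the Mas-related family, was at 6.78 and 6.95 at 12 h, below the array median, and at 9.51 and 9.48 at 24 h. It rose at least 6.18-fold (2.63 ± 0.12, adjusted p = 8.92e-13). C1QTNF1, a secreted protein of the C1q and TNF related family, rose at least 4.88-fold by its brightest probe, whereas its other kept probe, at 0.13 over the array median, moved by 0.10 (adjusted p = 0.65). H4C8, a gene of histone H4, rose 4.57-fold and is taken up with the other histone genes below.

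**Figure D2:**
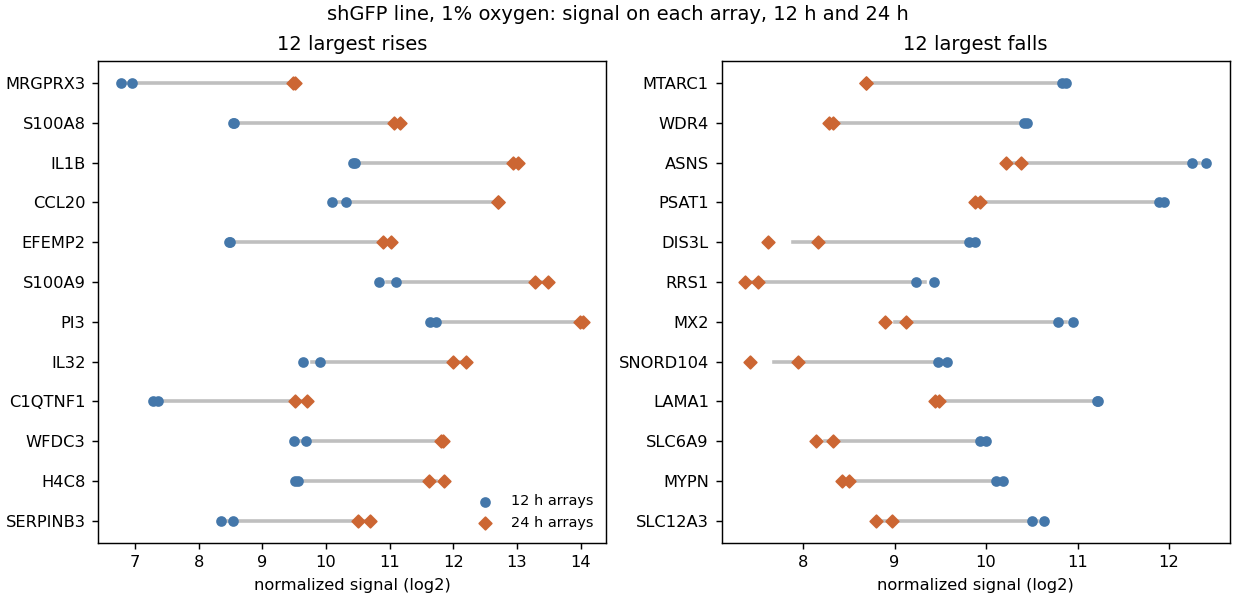
Normalized log2 signal (x axis) of the 12 largest rises (left) and the 12 largest falls (right); blue circles are the 2 arrays at 12 h, orange diamonds the 2 arrays at 24 h, and grey bars join the means. In every row the 12 h and 24 h arrays are apart, which the choice of these genes required. The replicates of DIS3L and SNORD104 at 24 h are the widest pairs.

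NF-kappaB is a family of transcription factors that drives cytokines, chemokines and its own inhibitors. Of 27 measured NF-kappaB target genes, 23 rose and none fell, with a median difference of 0.90 against -0.02 over all genes, where 12.2% were higher. Beside IL1B and CCL20, the cytokine IL6 stood at 11.29 and 11.37 at 12 h and at 13.06 and 12.95 at 24 h. It rose 3.20-fold (adjusted p = 1.36e-08), the 24 h arrays lying above both 12 h arrays. The chemokine CXCL8 rose 2.87-fold, the cytokine IL1A 3.01-fold and the adhesion molecule ICAM1 2.50-fold. The feedback inhibitors moved the same way, with TNFAIP3, a ubiquitin-editing enzyme, 2.63-fold higher and NFKBIA, the inhibitor that holds NF-kappaB in the cytoplasm, 1.37-fold higher (adjusted p = 0.0154). TRAF1, an adaptor of TNF receptors, rose 2.34-fold by its brightest probe but was at 0.06 by its other one. The 4 members that did not pass were the chemokines CXCL1 (-0.15), CXCL2 (0.15), CXCL3 (0.01) and CXCL5 (-0.01), 3 of them at or near the array median. Blood cell markers gave a summed signal of 11840 and 10990 at 12 h and of 12750 and 13480 at 24 h. Of the 12 with a probe, 7 lay below the array median, CD68 and CSF1R exceeded 2 times it, and the macrophage receptor CSF1R rose at least 2.32-fold. The samples were cultures of an established line, and blood cells are not among their labels. What these marker signals reflect, and any link to the cytokine rise, was not tested.

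The start regions of the NF-kappaB targets were searched for the factor's consensus site on both strands, within 250 bases before to 50 bases after the start (RefSeq, GRCh38.p14). This motif was chosen after the values were seen, and the list is one of known targets. Of 19 risen members with a promoter in the table, 8 (42.1%) held a match, against 12.6% of 11849 promoters of tested genes and 10.8% of all 27305. The promoters of a chemokine, a cytokine and a feedback inhibitor are shown, with the matched bases in capitals.
CCL20 promoter, chr2:227813592-227813891, plus strand: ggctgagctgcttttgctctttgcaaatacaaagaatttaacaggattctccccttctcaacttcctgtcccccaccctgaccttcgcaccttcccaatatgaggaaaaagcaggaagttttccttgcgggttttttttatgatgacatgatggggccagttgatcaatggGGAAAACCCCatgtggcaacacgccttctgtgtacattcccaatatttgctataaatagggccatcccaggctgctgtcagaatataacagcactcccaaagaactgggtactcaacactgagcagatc
IL6 promoter, chr7:22726950-22727249, plus strand: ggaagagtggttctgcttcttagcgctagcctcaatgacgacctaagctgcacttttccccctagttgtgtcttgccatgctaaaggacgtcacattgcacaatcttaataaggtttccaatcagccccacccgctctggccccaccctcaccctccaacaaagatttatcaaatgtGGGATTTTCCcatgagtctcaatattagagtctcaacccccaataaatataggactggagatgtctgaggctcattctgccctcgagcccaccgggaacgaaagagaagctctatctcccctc
TNFAIP3 promoter, chr6:137867009-137867308, plus strand: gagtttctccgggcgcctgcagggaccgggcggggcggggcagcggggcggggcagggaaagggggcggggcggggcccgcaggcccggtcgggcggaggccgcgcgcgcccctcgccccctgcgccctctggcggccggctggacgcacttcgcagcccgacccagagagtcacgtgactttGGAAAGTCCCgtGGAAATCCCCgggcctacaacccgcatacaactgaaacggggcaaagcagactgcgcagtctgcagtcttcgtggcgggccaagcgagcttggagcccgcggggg
The CCL20 match begins 79 bases before the start and that of IL6 73 bases before it, while TNFAIP3 has a pair at 67 and 55 bases. IL1B, with the largest rise of the list, held no match in its window.

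Immediate early genes, transcription factors that respond to stress and growth signals within minutes, rose in 14 of 24 measured cases and fell in none (median 0.54). ATF3, a stress-induced repressor, went from 10.55 and 10.45 to 11.70 and 11.79. It rose 2.37-fold (adjusted p = 1.15e-07) with no overlap between the times. ZFP36, which destabilises cytokine messages, rose 2.17-fold, KLF9 2.15-fold and FOSL1, an AP-1 subunit, 2.09-fold. With median-centred arrays 9 rose and 1 fell, and with the values as deposited 7 and 1. Among 21 ERK feedback and output genes, 7 rose and 2 fell (median 0.11). SPRY4, a feedback inhibitor of the pathway, rose 1.97-fold by its brightest probe, at 7.84 and 8.0 before and 8.78 and 9.01 after, but its other probes, both near the array median, were at -0.13 and 0.13. Its relative SPRY2 fell 1.61-fold, from 8.61 and 8.60 to 8.06 and 7.79. The ERK list was split 5 and 5 with median-centred arrays and 4 and 6 with the values as deposited.

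Of 22 genes known as FOXO targets or growth arrest genes, 11 rose, 1 fell and 10 did not pass (median 0.37). The rises numbered 8 with median-centred arrays and 8 with the values as deposited. PIK3IP1, a brake on PI3 kinase, went from 8.90 and 9.02 to 10.31 and 10.47, a 2.70-fold rise (adjusted p = 5.04e-09). CCNG2, an atypical cyclin of arrested cells, rose 1.87-fold and the repressor BCL6 1.79-fold. PDK4, which inhibits pyruvate dehydrogenase, was the member that fell, from 10.93 and 10.76 to 9.56 and 9.71 (2.31-fold). Of 21 G1 cyclins and cell cycle inhibitors, 5 rose and 6 fell (median -0.12). CDKN2D, an inhibitor of CDK4 and CDK6, rose 2.19-fold and CDKN1A, the inhibitor p21, 1.56-fold. CDC25A, a phosphatase that licenses S phase, fell 2.65-fold by its brightest probe and was at -0.18 by the other, and the transcription factor E2F2 fell 2.06-fold. Of 22 p53 targets, 6 rose and none fell (median 0.20), with BBC3, a BH3-only death factor, 1.68-fold higher. That count was 2 with median-centred arrays, 1 with the values as deposited and up to 10 under other settings.

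Members of the oxygen-sensing machinery itself rose in 4 of 11 measured cases and fell in none (median 0.41). That count was 3 with the values as deposited, 4 with median-centred arrays and 6 with shGFP arrays only or with array weights. ARNT2 went from 9.45 and 9.57 to 10.65 and 10.71 (2.25-fold), ARNT from 7.77 and 7.73 to 8.59 and 8.35 (1.65-fold), and EPAS1, which encodes HIF-2 alpha, from 12.83 and 12.94 to 13.61 and 13.38 (1.53-fold). EGLN1, the main prolyl hydroxylase, rose 1.81-fold. HIF1A, which encodes HIF-1 alpha, lay at 10.67 and 10.58 at 12 h and at 11.11 and 11 at 24 h. The times did not overlap, but the difference of 0.43 ± 0.18 missed the threshold (adjusted p = 0.0761), while 2 dimmer probes of the gene gave 0.70 (adjusted p = 0.0472) and 1.06 (adjusted p = 0.005). NDRG3 was at 10.80 and 10.60 and then at 10.68 and 10.81, with overlapping times and a difference of 0.04 ± 0.12 (adjusted p = 0.844). NDRG1, a classic hypoxia-induced gene, overlapped as well, at 14.85 and 15.10 and then 14.86 and 15.02 (-0.03 ± 0.13, adjusted p = 0.892).

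HIF target genes other than glycolytic ones rose in 20 of 35 cases and fell in 1 (median 0.54). CA12, a carbonic anhydrase that exports acid, went from 11.75 and 11.81 to 13.06 on both arrays, a 2.43-fold rise (adjusted p = 1.27e-06) with no overlap. ERO1A, an oxidase of the endoplasmic reticulum, rose 1.68-fold and the histone demethylase KDM3A 1.49-fold. HMOX1, which breaks down heme, was the one member that fell, 1.86-fold, from 11.45 and 11.57 to 10.61 and 10.63. With median-centred arrays 12 members rose, and with the values as deposited 10 rose and 3 fell. In glucose uptake and glycolysis 8 of 26 rose and 2 fell (median 0.16). PFKFB3, which makes the activator of the pathway's gatekeeper step, went from 11.09 and 11.27 to 12.53 and 12.60 (2.61-fold, adjusted p = 2.48e-08). ENO2 rose 1.87-fold, PDK3 1.84-fold and ALDOC 1.76-fold. Members that were already very bright gave small differences, among them LDHA at -0.04 (levels of 15.65 and 15.55, then 15.50 and 15.63), PGK1 at 0.16 and the glucose transporter SLC2A3 at 0.06. The muscle-type phosphofructokinase PFKM fell 1.59-fold. The glycolytic rises numbered 5 with median-centred arrays and 4 with the values as deposited, where 4 fell.

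Secreted angiogenic and growth factors rose in 11 of 23 cases and fell in 1 (median 0.31). VEGFA, the main blood vessel growth factor, lay at 10.46 and 10.38 at 12 h and at 11.29 and 11.56 at 24 h. It rose by 1.00 ± 0.19 on the log2 scale (2-fold, adjusted p = 0.00038), and its other kept probe gave 1.04. ANG, the ribonuclease angiogenin, rose 3.18-fold, from 12.62 and 12.74 to 14.39 and 14.30, and the hormone STC1 rose 2.69-fold. EDN2, an endothelin, rose at least 2.77-fold from near the array median. Among collagen and matrix modifying genes 5 of 18 rose and 2 fell (median 0.20). LOX, which crosslinks collagen and elastin, was at 12.55 and 12.36 at 12 h and at 14.51 and 14.43 at 24 h. Its 4.04-fold rise (2.02 ± 0.17, adjusted p = 1.07e-08) left no overlap, and its relative LOXL4 and the collagen hydroxylase P4HA2 rose 2.38-fold and 2.31-fold. The laminin chain LAMB1 was lower by 0.59 (log2), with another probe at -0.39 that did not pass (adjusted p = 0.383). Secreted factors that rose numbered 7 with median-centred arrays and 6 with the values as deposited, and matrix genes 4 and 3.

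The core of the HIF binding site, ACGTG or GCGTG on either strand, was counted in the same start regions. It was present in 61.8% of higher and 65.8% of lower genes with a promoter in the table, in 59.2% of the promoters of genes tested and in 48.4% of all. Of the 12 largest rises 9 had a promoter and 1 held a match (11.1%), the chemokine gene CCL20, and of the largest falls 8 had a promoter and 4 held one (50%). CACGTG, which contains ACGTG and is also the site of MYC with MAX, was found in 10.6% of higher, 11.2% of lower and 9.53% of tested genes, and in none of the largest rises or falls. A match is only a description of these letters.

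Histone genes rose in 12 of 21 cases and fell in 4 (median 0.76). H4C8 stood at 9.56 and 9.51 at 12 h and at 11.61 and 11.85 at 24 h, far above and without overlap (2.19 ± 0.22, adjusted p = 1.22e-07). H2BC21 rose 2.87-fold, H2BC4 2.70-fold and H2BC5 2.25-fold, all genes of histone H2B. The 4 that fell were H4C3 (-0.65), H2AZ1 (-0.56), MACROH2A1 (-0.51) and H2BC12 (-0.32). Members of histone families are near-identical in sequence, so the gene behind a probe is uncertain. Genes of S phase, when replication-coupled histones are normally made, fell at the same time, as described below.

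The largest falls included enzymes of amino acid synthesis, a ribosome assembly factor and an interferon-stimulated gene. MTARC1, a molybdenum-containing reductase of the mitochondrial outer membrane, lay at 10.83 and 10.87 at 12 h and at 8.69 on both arrays at 24 h. It fell 4.48-fold (-2.16 ± 0.12, adjusted p = 7.16e-12), with the 2 times far apart. LAMA1, a laminin chain of basement membranes, went from 11.22 and 11.21 to 9.49 and 9.45, a 3.36-fold fall that its other probe shared (-1.20). DIS3L, a subunit of the cytoplasmic RNA exosome, fell 3.86-fold, from 9.87 and 9.81 to 8.17 and 7.62. MYPN, a muscle sarcomere protein, and SLC12A3, the sodium chloride cotransporter of the kidney, fell 3.21-fold each. SNORD104, a small nucleolar RNA, fell 3.58-fold. SLC6A9, a glycine transporter, fell 3.32-fold by its brightest probe and was at 0.03 by its other one, which lay 0.18 over the array median.

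Of 46 measured ribosome biogenesis genes, 34 fell and 1 rose (median -0.68), against 15% lower among all genes. WDR4, part of a tRNA methyltransferase, was at 10.45 and 10.41 at 12 h and at 8.32 and 8.28 at 24 h. It fell 4.37-fold (-2.13 ± 0.19, adjusted p = 1.92e-08), and both other probes fell too (-0.85 and -0.37). RRS1, an assembly factor of the large subunit, was at 9.24 and 9.43 and then at 7.51 and 7.36, a fall of at least 3.72-fold. BOP1, of the same assembly line, fell 2.83-fold and HEATR1, which works in transcription of ribosomal RNA, 2.42-fold. TSR1, an assembly factor of the small subunit, was the member that rose (0.39). Of 27 ribosomal proteins themselves, 2 fell and none rose (median -0.06), with RPL4 1.32-fold lower and RPS23 at least 1.33-fold lower. Ribosomal protein falls numbered 6 with the values as deposited, 4 with median-centred arrays, 1 without the second 24 h array and none when either 12 h array was left out. MYC, the transcription factor known to drive ribosome assembly, fell 1.37-fold, from 12.19 and 12.29 to 11.77 and 11.80 (adjusted p = 0.00206). In the shNDRG3 line MYC was at 0.05 (adjusted p = 0.801), and the lines differed by 0.50 (adjusted p = 0.0419). There 32 of the 46 ribosome biogenesis genes fell (median -0.66). Any link between MYC and these falls was not tested. The MYC antagonists MXD1 and MNT rose 2.20-fold and 1.57-fold, within a network list of 12 in which 3 rose and 2 fell. MAX, the shared partner, fell at least 1.78-fold by its brightest probe, against 0.34 (adjusted p = 0.0469) by another.

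Genes that charge tRNAs with amino acids fell in 15 of 18 cases and rose in none (median -0.81). MARS1, which charges methionine, went from 11.32 and 11.36 to 9.88 and 9.89, a 2.75-fold fall (adjusted p = 4.79e-06) without overlap. EPRS1 and LARS1 fell 2.07-fold and 2.04-fold. VARS1 fell 2.64-fold, with its other probe at -0.26. Nucleotide synthesis fell in 16 of 23 cases and rose in none (median -0.62). CAD, the enzyme that starts pyrimidine synthesis, fell at least 2.62-fold, the purine enzymes ATIC and GART 2.39-fold and 2.27-fold, and the nucleoside diphosphate kinase NME1 2.43-fold. Of 12 measured polyamine genes 1 rose and 2 fell (median 0.06), against 12.2% and 15% of all genes. SRM, spermidine synthase, was 3.02-fold lower, AZIN1 1.93-fold lower and SAT1, which breaks polyamines down, 2.37-fold higher.

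ATF4 is the transcription factor of the amino acid stress response. Of 30 measured ATF4 targets, 14 fell and 3 rose (median -0.29). ASNS, asparagine synthetase, lay at 12.25 and 12.41 at 12 h and at 10.22 and 10.38 at 24 h. It fell 4.08-fold (-2.03 ± 0.24, adjusted p = 1.16e-06), and its other probe fell by 1.57. PSAT1, of serine synthesis, went from 11.89 and 11.95 to 9.93 and 9.88, a 4.05-fold fall (adjusted p = 7.98e-05), PSPH of the same route fell at least 3.02-fold, and CBS, of cysteine synthesis, fell 2.73-fold. The amino acid transporters SLC1A5 and SLC7A11 fell 2.68-fold and at least 2.59-fold. The 3 members that rose act in the stress response or in lipoprotein uptake: PPP1R15A (0.84), DDIT3 (0.75) and VLDLR (0.48). ATF4 itself was at -0.23 (adjusted p = 0.102). A core of the amino acid response site, TGATGNAA on either strand, was found in 2 of the 10 fallen members with a promoter (20%), against 2.17% of tested and 3.67% of all promoters, again a motif chosen after the values were seen. The ASNS promoter is shown with its match in capitals, which starts 68 bases before the start.
ASNS promoter, chr7:97872359-97872658, minus strand: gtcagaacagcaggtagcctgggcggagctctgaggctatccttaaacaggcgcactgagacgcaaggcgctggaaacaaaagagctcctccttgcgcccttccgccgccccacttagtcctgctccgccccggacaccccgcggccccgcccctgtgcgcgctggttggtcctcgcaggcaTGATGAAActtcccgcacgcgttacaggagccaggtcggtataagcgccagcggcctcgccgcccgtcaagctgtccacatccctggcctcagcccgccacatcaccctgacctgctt

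DNA replication genes fell in 33 of 40 cases and rose in 1 (median -0.51). UHRF1, which carries DNA methylation through replication, went from 12.24 and 12.20 to 10.72 and 10.78, a 2.77-fold fall (adjusted p = 1.14e-07) by its brightest probe. Its other probe, at the array median, was at -0.33 (adjusted p = 0.086). CHAF1B, a subunit of the chromatin assembly factor, fell 2.49-fold, and the replicative helicase subunits MCM3 and MCM6 fell 1.89-fold and 1.74-fold. RFC2, of the clamp loader, was the one that rose (0.64). Mitotic genes fell in 20 of 42 cases and rose in none (median -0.35). CENPF, a kinetochore protein, went from 10.08 and 10.15 to 9.01 and 9.14 (2.05-fold), and the kinetochore subunit CENPM and the kinesin KIF20A fell 1.97-fold each. The mitotic count was 31 with the values as deposited, 25 with median-centred arrays and 19 with background subtracted. Its list median was -0.30 without the second 24 h array and -0.40 without the first.

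Of 20 fatty acid genes, 12 fell and 1 rose (median -0.53). FASN, fatty acid synthase, went from 13.32 and 13.23 to 11.76 and 12.01, a 2.63-fold fall (adjusted p = 2.75e-07), ACACA, the step before it, fell 2.61-fold, and ACLY, which supplies the acetyl units, 1.64-fold. The fall of FASN was larger than the spread of both pairs. Cholesterol genes fell in 10 of 21 cases and rose in 3 (median -0.36). SQLE, an oxygen-using enzyme of the route, fell 2.18-fold, while ABCG1, a sterol exporter, rose 1.82-fold and TM7SF2 1.64-fold. MSMO1 fell 2.19-fold by its brightest probe and was 0.68 higher by another (adjusted p = 0.0049).

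Of 25 genes of the citrate cycle and protein import, 14 fell and 2 rose (median -0.34), with the import chaperone TIMM10 2.55-fold lower, from 10.99 and 11.04 to 9.77 and 9.57, and the pyruvate dehydrogenase subunits DLAT and PDHA1 1.75-fold and 1.61-fold lower. Of 40 respiratory chain subunits, 12 fell and none rose (median -0.13). ATP5MC1, of the ATP synthase rotor, fell 2.16-fold and COX5A 1.41-fold. Heat shock proteins fell in 9 of 17 cases and rose in 1 (median -0.51). HSPA8, the constitutive chaperone, went from 13.44 and 13.43 to 12.03 and 12.20 (2.49-fold), and the mitochondrial chaperonin HSPD1 fell 2.13-fold. Among folding genes of the endoplasmic reticulum 3 of 23 rose and 5 fell (median -0.11), against 12.2% and 15% of all genes. XBP1, a transcription factor of the unfolded protein response, was 1.97-fold higher and ATF6, another, 1.65-fold lower. Across the settings tried between 1 and 8 of the folding genes fell.

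NRF2 targets, genes of antioxidant defence, were listed together with the pentose phosphate enzymes. Of 22, 15 fell and 1 rose (median -0.49). ABCC2, a drug exporter, went from 9.73 on both arrays to 8.61 and 8.67, a 2.13-fold fall (adjusted p = 2.04e-07). TKT, transketolase, fell 2.12-fold. The glutamate cysteine ligase subunit GCLC was the member that rose (0.72). Metallothioneins, zinc and copper binding proteins, did not move as a group, since MT1F rose 2.15-fold, MT1H rose at least 1.46-fold and MT1E fell 2.84-fold by its brightest probe (0.05 by another). These genes are near-identical, so their probes may be shared. Iron handling genes rose in 5 of 11 cases and fell in 1 (median 0.26), with the iron-sensing aconitase ACO1 1.47-fold and the ferrireductase STEAP3 1.57-fold higher. With median-centred arrays 1 of them rose and with the values as deposited none did.

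Interferon-stimulated genes, which defend against viruses, fell in 21 of 42 cases and rose in 3 (median -0.42). MX2, a dynamin-like restriction factor, lay at 10.79 and 10.95 at 12 h and at 8.90 and 9.12 at 24 h. It fell 3.64-fold (-1.86 ± 0.11, adjusted p = 4.96e-11), and both 24 h arrays were below both 12 h arrays. SP110 went from 10.21 and 10.17 to 8.49 and 8.56, a 3.18-fold fall, USP18, which dampens interferon signalling, fell 2.69-fold and IFI35 2.29-fold. The 3 that rose were the antigen-presenting molecules HLA-C (1.11) and HLA-B (0.70) and the transcription factor IRF1 (1.03). HLA-B and HLA-C are alike in sequence, so their probes may read both. Without one array or another, and over the other settings, between 12 and 26 members fell.

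Of 29 autophagy and lysosome genes 11 rose and 1 fell (median 0.29). CTSB, the lysosomal protease cathepsin B, went from 11.57 and 11.52 to 13.06 and 12.97 (2.77-fold, adjusted p = 2.07e-08). WIPI1 and MAP1LC3B, which build the autophagosome, rose 1.94-fold and 1.89-fold, and GABARAPL2 rose 1.75-fold with another probe at -0.01. The count was 8 with median-centred arrays and 5 with the values as deposited. Cell death regulators rose in 7 of 23 cases and fell in 2 (median 0.14), with TNFRSF10B, a receptor for the death ligand TRAIL, 1.38-fold and BMF at least 1.51-fold higher. The cell death rises numbered 2 with median-centred arrays and none with the values as deposited. Oxygen-dependent chromatin dioxygenases rose in 7 of 16 cases and fell in none (median 0.20), led by the histone demethylase KDM7A, from 8.18 and 8.21 to 9.69 and 9.65 (2.78-fold), with 3 rises and 2 falls under both other scalings.

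Adhesion and cytoskeleton genes fell in 5 of 19 cases and rose in 2 (median -0.01). N-cadherin (CDH2) fell at least 2.39-fold, keratin 7 (KRT7) 2.20-fold, keratin 8 (KRT8) by 1.00 on the log2 scale and the hyaluronan receptor CD44 1.53-fold. Among 22 YAP targets and TEAD factors, 3 fell and 1 rose (median -0.01), against 15% lower among all genes. ANKRD1 went from 8.54 and 8.61 to 7.62 and 7.53, near the array median, a fall of at least 1.00 (log2), while GADD45B, which is also an NF-kappaB responsive gene, rose 2.10-fold. The YAP list held 5 falls under both other scalings, 1 fall without the second 12 h array or without the first 24 h array, and up to 5 rises under other settings. Long noncoding RNAs rose in 3 of 17 cases and fell in 1 (median 0.06), against 12.2% higher and 15% lower among all genes. SNHG15, a small nucleolar RNA host, went from 11.46 and 11.50 to 12.64 on both arrays (2.23-fold), and DANCR fell 1.40-fold.

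Markers of other cell types gave mixed values. Of 9 measured fibroblast markers 3 rose and 1 fell. Smooth muscle actin (ACTA2) went from 9.95 and 9.81 to 11.47 and 11.53, a 3.07-fold rise (adjusted p = 6.94e-10), while the collagen COL1A1 fell 1.29-fold. The summed signal of that list was 49590 and 52960 at 12 h and 52300 and 51650 at 24 h. Of 7 endothelial markers 3 rose and 2 fell, with a sum of 2197 and 2191 and then of 2059 and 2104. Of 9 blood cell markers, CSF1R rose. In the hepatocyte list 2 of 21 rose and 3 fell, against 12.2% and 15% of all genes. There complement C3 rose 2.49-fold and CPS1, of the urea cycle, fell 1.65-fold. Of 14 common reference genes none rose and 1 fell, the tubulin TUBB, by 1.63-fold, which its other bright probe did not share (-0.15). With the values as deposited 4 of the reference genes fell, and with median-centred arrays 3.

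**Figure D3:**
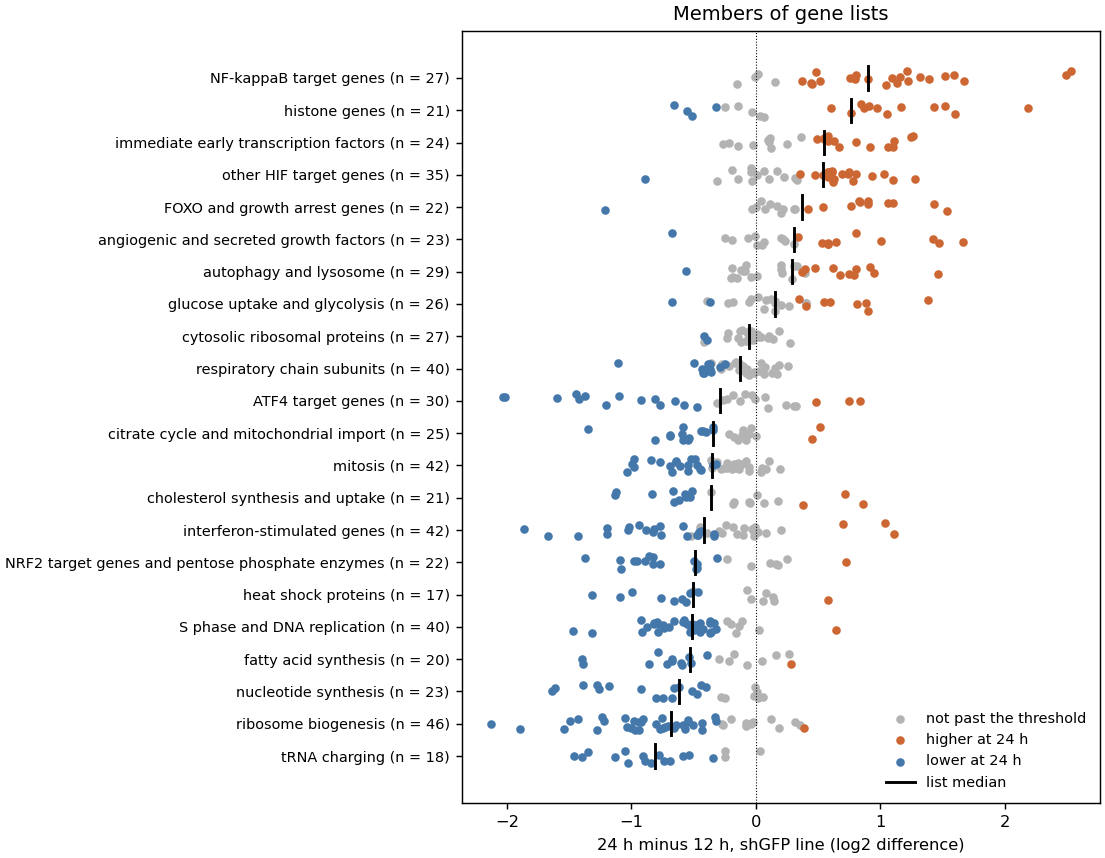
Each point is a measured member of 22 of the 42 gene lists, with the 24 h minus 12 h difference in the shGFP line on the x axis (log2); coloured points passed the threshold and black bars are list medians. Medians run from 0.90 for NF-kappaB targets to -0.81 for tRNA charging.

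Over all settings, leaving out each array included, the counts of some lists moved further than given above. Respiratory chain falls ran from 5 to 17, falls of G1 genes from 2 to 9, ERK rises from 3 to 9 and glycolytic rises from 4 to 11. Rises of NF-kappaB targets ran from 17 to 23, ribosome biogenesis falls from 27 to 36, tRNA charging falls from 14 to 17 and replication falls from 24 to 36.

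The late change was set beside the early one, the shGFP line at 6 h against normoxia, which shares no array with it. Early, 742 genes passed (4.87%), 495 higher (3.25%) and 247 lower (1.62%). Of the 495, 245 (49.5%) rose again between 12 h and 24 h and 21 (4.24%) fell, against 12.2% higher and 15% lower among all genes. The 245 are 13.2% of the late rises, so most late rises had not passed early. Of the 247 early falls, 99 (40.1%) fell again, which is 4.33% of the late falls, and 25 (10.1%) rose late, a share near the 12.2% of all genes. NDRG1 rose early by 2.32 and stayed within its spread late.

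The time course of the shGFP arrays showed several shapes. LOX climbed at each time measured, with means of 8.76 in normoxia, 9.46 at 3 h and 10.64 at 6 h before the 12 h and 24 h levels above. EFEMP2 stood near the array median until 6 h, with means of 7.2, 7.21 and 7.42. IL1B was at 9.47 in normoxia, 9.30 at 3 h and 9.29 at 6 h, so that its rise lay after 6 h. ASNS was at 10.96 in normoxia, 10.94 at 3 h and 11.67 at 6 h, was highest at 12 h and was below its normoxia level at 24 h. PSAT1 followed the same order, with 11.23 in normoxia and 11.69 at 6 h. UHRF1 was level at 12.78, 12.73 and 12.76 until 6 h. MX2 was at 12.16 in normoxia and 11.73 at 6 h, an early fall past the threshold (adjusted p = 0.0271). WDR4 was at 11.29 and 11.06, an early difference of -0.23 that did not pass (adjusted p = 0.638). The 12 h arrays enter the late change too, so these orders are levels side by side.

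**Figure D4:**
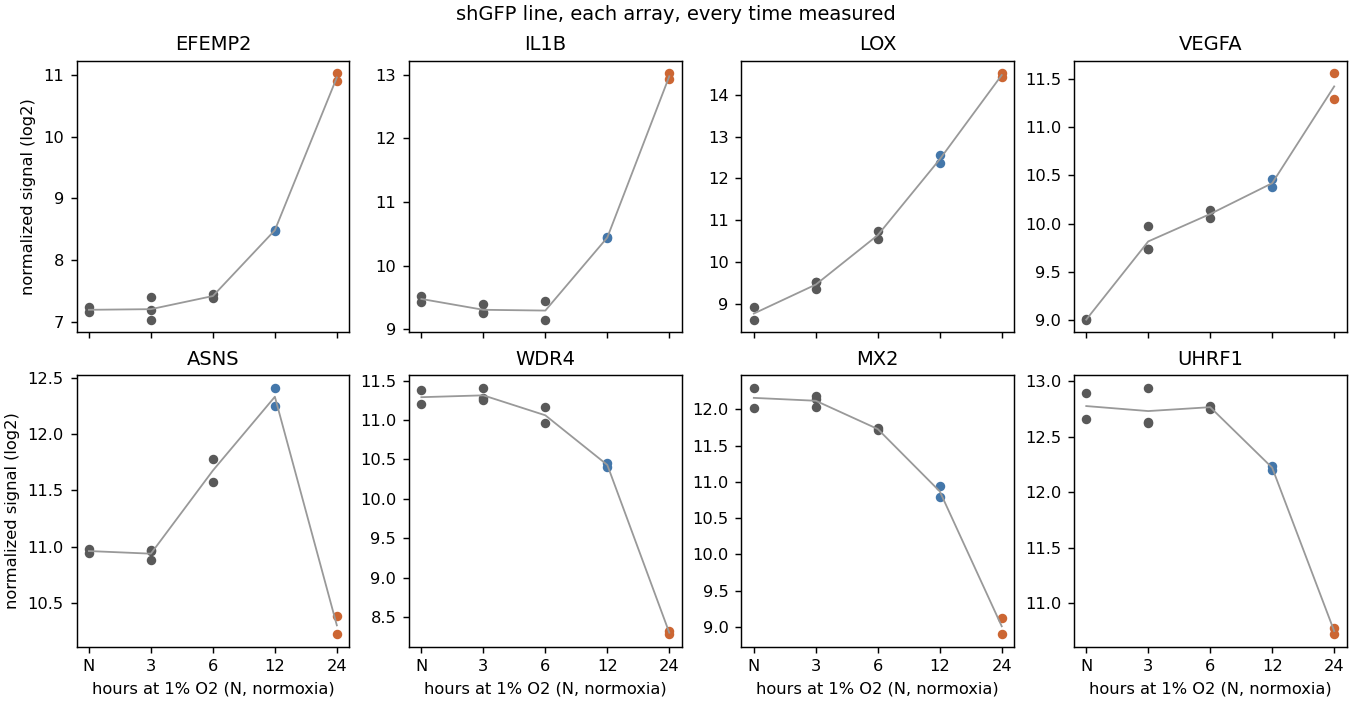
Normalized log2 signal (y axis, a separate scale in each panel) of 8 genes on every shGFP array, against hours at 1% oxygen at even steps for each doubling, with normoxia (N) set first; lines join the means, blue marks 12 h and orange 24 h. EFEMP2 and IL1B turn upwards after 6 h, LOX and VEGFA climb from 3 h, and ASNS peaks at 12 h and ends lowest at 24 h.

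The shNDRG3 line, on other arrays, allowed the same comparison. There 4229 genes passed (27.7%), 2029 higher (13.3%) and 2200 lower (14.4%). Of the shGFP rises 988 (53.2%) were also rises in shNDRG3, where they made 48.7% of the rises, and of the falls 1259 (55%) were shared, 57.2% of the shNDRG3 falls. Opposite calls were few, 28 and 30 genes. Of the 4147 shGFP calls 3648 (88%) had the same sign in shNDRG3, against 67% of all genes, and the differences correlated at r = 0.634 and rho = 0.561 across 15246 genes, which are not independent replicates. The 2 arrays of shNDRG3 at 24 h correlated at r = 0.9798 and differed by a median of 0.208, against 0.1 in its 12 h pair. EFEMP2, H4C8, WFDC3, RRS1 and PSAT1 were among the leading genes whose difference between the lines did not pass, at 0.31, 0.01, 0.55, 0.20 and 0.33. In shNDRG3 the 24 h arrays lay far apart for PSAT1 (9.914 and 12.08), RRS1 (7.675 and 8.972) and H4C8 (11.38 and 10.21). For these genes a small mean difference does not show that the lines moved alike.

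The change from 12 h to 24 h differed between the lines for 1025 genes (6.72%), 604 (3.96%) with a more positive change in shNDRG3 and 421 (2.76%) with a more negative one. Leaving out 1 array moved that count to between 439 and 2632, the higher figure without the first shNDRG3 array at 24 h. The lowest difference among the named genes was that of S100A8, which in shNDRG3 lay at 7.12 and 7.06 at 12 h and at 7.11 and 7.22 at 24 h, at the array median throughout, so the difference from shGFP was -2.49 ± 0.19 (adjusted p = 4.46e-08). IL1B was at 6.72 and 6.68 and then at 7.58 and 7.05, a difference of -1.91 ± 0.19 (adjusted p = 9.74e-07). CCL20 went from 6.81 and 6.80 to 7.81 and 7.03 (-1.88, adjusted p = 2.42e-05). Such levels near the array median limit what these probes can show. Of the 27 NF-kappaB targets, 17 rose in shNDRG3 and 10 differed between the lines. CXCL8 was an exception in sign, rising by 2.74 there, which was 1.22 more than in shGFP (adjusted p = 0.013).

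Of the 42 interferon-stimulated genes, 17 differed between the lines, against 6.72% of all genes. In shNDRG3 9 of the 42 rose and 5 fell, against 13.3% and 14.4% of all genes there. MX2 was below the array median in that line at both times, at 6.83 and 6.92 and then at 6.96 and 6.92, and the difference of 1.92 ± 0.16 (adjusted p = 9.14e-08) rests on the shGFP fall. SP110 fell by 0.37 there, a difference of 1.29 (adjusted p = 6.57e-06). The 4 largest differences in the opposite sense, named for their size, were those of RGS2, PHLDA1, ITGB4 and ITGA2. ITGA2, a collagen-binding integrin, was at 9.27 and 9.28 and then at 11.89 and 11.39, whereas shGFP cells had it at 12.80 and 13.04 and then 13.01 and 13.11. The difference was 2.23 ± 0.19 (adjusted p = 9.14e-08), and the 24 h levels in shNDRG3 were still below those of shGFP. ITGB4, a laminin-binding integrin, and PHLDA1 showed the same order, with differences of 2.27 and 2.35. RGS2, a brake on G protein signalling, fell in shGFP from 12.23 and 12.14 to 11.14 and 11.09 and rose in shNDRG3 from 9.14 and 9.11 to 10.10 and 11.18 (2.58 ± 0.33, adjusted p = 2.58e-05).

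HMOX1 fell by 2.71 in shNDRG3, which was 1.81 more than in shGFP (adjusted p = 1.46e-06). HSPA1B, the inducible heat shock protein, was level in shGFP (0.14, adjusted p = 0.769) and went from 12.47 and 12.35 to 9.76 and 11.25 in shNDRG3, a difference of -2.05 ± 0.37 (adjusted p = 0.00119). Its 24 h arrays in shNDRG3 were far apart, and the difference was -2.79 without the second of them and -1.30 without the first. ATF3, which rose in shGFP, was at -0.50 in shNDRG3, a difference of -1.74 (adjusted p = 9.74e-07). Lists in which falls prevailed in shGFP held unlike numbers of line differences, against 6.72% of all genes. Heat shock proteins differed in 9 of 17 cases, ATF4 targets in 8 of 30, DNA replication genes in 9 of 40 and NRF2 targets in 5 of 22. Ribosome biogenesis genes differed in 5 of 46 cases, tRNA charging genes in 2 of 18 and mitotic genes in 1 of 42.

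**Figure D5:**
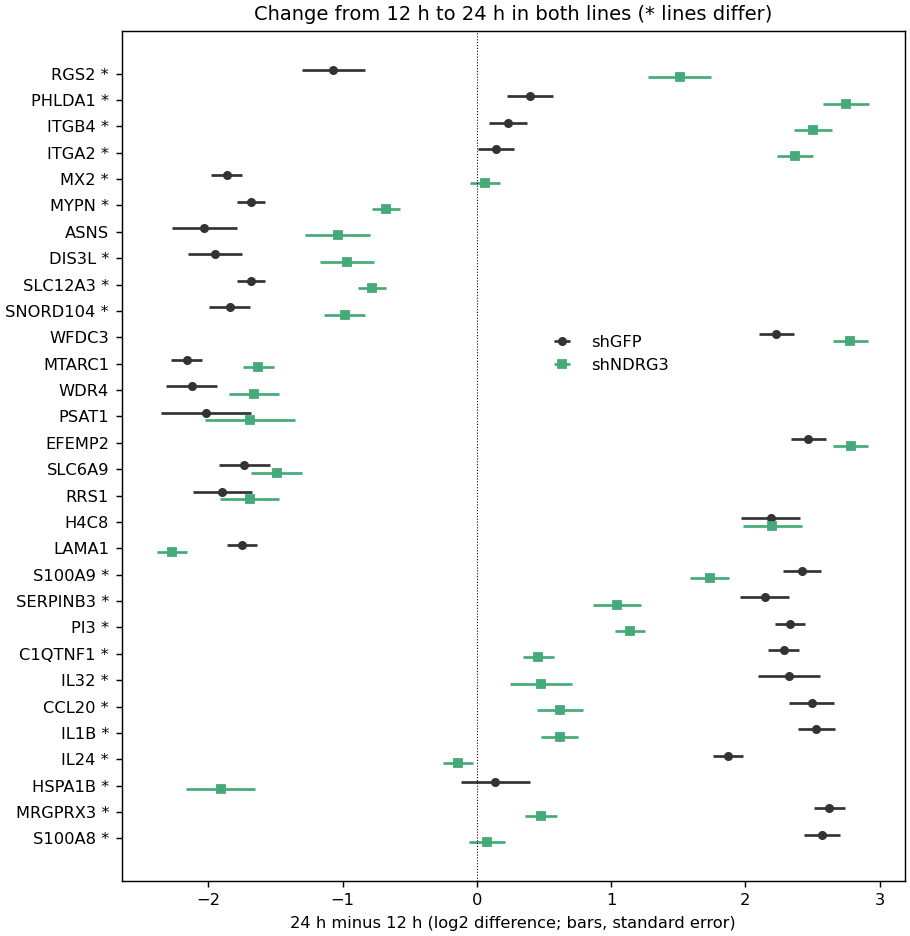
Difference between 24 h and 12 h (x axis, log2, with standard errors from limma) of 30 leading genes in the shGFP (circles) and shNDRG3 (squares) lines, ordered by how far the lines differ; an asterisk marks genes whose difference between the lines passed the threshold. RGS2 and S100A8 stand at the ends, with differences of 2.58 and -2.49, and H4C8 is at 0.01. The standard error of a gene is pooled over all arrays and is the same in both lines, so the bars do not show each line's own spread.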

How the data were processed

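Values were analysed in 24 arrays of 11 groups, assigned by sample title. The authors deposited 1 intensity per probe and array, linear and never under 52.6. The labels' protocols give column-purified total RNA amplified with an Illumina kit, and name no scanner software; background treatment and normalization are likewise not given in the sources. Log2 values were quantile normalized over all arrays (limma 3.58.1, R 4.3.3). Of 47231 probes, 31100 lay above their array's median in at least 2 arrays. Each of 15246 genes was read by its brightest kept probe, named by the platform annotation (30113 probes had 1 symbol, 8 several and 17110 none listed). Group means were fitted to all arrays with lmFit and eBayes (13 residual and 9.74 prior degrees of freedom). Contrasts were two-sided, adjusted by Benjamini-Hochberg over 15246 genes at 0.05.

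The arrays, the 42 gene lists (936 of 1057 genes measured) and the tests were chosen with earlier results of these data known. Named genes were HIF1A, NDRG3, NDRG1 and VEGFA, the 12 largest rises and falls without overlap, up to 4 members of each list by smallest p, up to 2 of a list with none past the threshold, and the 4 highest and lowest line differences. Symbols without a proper name were left out of the largest changes. The remaining genes in the text, among them TNFAIP3, CXCL8, IL1A, ICAM1, NFKBIA, LDHA, PGK1, SLC2A3, ATF4 and the exceptions of lists, were chosen after their values were seen, as was the bound of 1.5 times the array median. Replicate numbers were not taken to pair the samples. Deviations of same-numbered arrays correlated at 0.0286 (shGFP) and 0.0999 (shNDRG3), which cannot show whether such arrays shared a culture or batch. The number of arrays limits the precision. Other normalizations, a background subtraction, filters, probe rules, array weights, a replicate block and leaving out arrays were tried.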

Additional observations from a re-analysis of the deposited data

Results flagged for a closer look

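A difference between the lines was the reason for a closer look at 1025 genes, whose change from 12 h to 24 h differed between shNDRG3 and shGFP (limma, adjusted over 15246 genes). The named genes among them follow with the shNDRG3 minus shGFP difference of that change on the log2 scale, for the leading genes and for list members of 1 or more in size. A more positive change in shNDRG3 was seen for RGS2 (2.58), PHLDA1 (2.35), ITGB4 (2.27), ITGA2 (2.23), MX2 (1.92), PDK4 (1.31), SP110 (1.29), CDH2 (1.28), LAMB1 (1.11), MYPN (1.01), UHRF1 (1.00), DIS3L (0.98), SLC12A3 (0.90) and SNORD104 (0.85). Without the second shNDRG3 array at 24 h the difference of DIS3L was 0.57 and did not pass (adjusted p = 0.147). MX2 and CDH2 lay below the array median in shNDRG3 at both times, where no fall could be seen, so their values restate the shGFP fall.

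A more negative change in shNDRG3 was seen for the inflammatory and inhibitor genes S100A8 (-2.49), IL24 (-2.01), IL1B (-1.91), CCL20 (-1.88), IL32 (-1.84), TRAF1 (-1.38), PI3 (-1.19), SERPINB3 (-1.10) and S100A9 (-0.69). The same was seen for the stress genes HSPA1B (-2.05), HMOX1 (-1.81) and ATF3 (-1.74). It was also seen for MRGPRX3 (-2.15), C1QTNF1 (-1.83), H2BC4 (-1.33), EDN2 (-1.30), PIK3IP1 (-1.08), SNHG15 (-1.03) and MT1H (-1.01). Several of these, S100A8, IL24, IL1B, CCL20 and MRGPRX3 among them, lay near the array median in shNDRG3 at 12 h.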

How the results depend on the processing

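Of 183 named genes, 176 passed the threshold, all 176 kept their direction under every setting tried and 144 stayed past the threshold in all of them. The shGFP count of 4147 (1858 higher, 2289 lower) was 624 higher and 3955 lower with the values as deposited and 881 higher with median-centred arrays. Leaving out 1 compared array gave 2756 to 2991 in all, 1250 to 1369 higher and 1493 to 1622 lower; the lowest total was without the second 24 h array. The lone array left was assumed to vary like the other groups. The shNDRG3 count of 4229 was 2027 with array weights and 2866 to 5061 without 1 array. The line difference of 1025 was 429 with the values as deposited, 410 with median-centred arrays, 511 with array weights and 439 to 2632 without 1 array (2632 without the first and 1420 without the second shNDRG3 array at 24 h, 597 or fewer without each of the other 6). The early count of 742 was 413 with median-centred arrays and 1150 with array weights, alternatives chosen after seeing the data. The replicate block changed these counts little, to 4101 for shGFP, 4232 for shNDRG3 and 1000 for the line difference; fitted on the 4 arrays alone it gave 5704. It was not taken as a pairing. The cause of these shifts was not tested.

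Of 63 called named genes with another kept probe, 17 had a call that no other probe shared, and for 2 (MAX and MSMO1) another probe opposed it. Signal limits 41.4% of genes, whose dimmer time was below 1.5 times the array median and whose folds are understated. The filters, probe rule and background subtraction kept the total, higher and lower counts of the shGFP comparison within 1.5 times, but not those of every gene list: with background subtracted, rises in iron handling went from 5 to 3 and falls in endoplasmic reticulum folding from 5 to 3, and with the mean of a gene's probes histone falls went from 4 to 2.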
